A study of Aspergillus nidulans with 12 samples.

Results

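The genes described here are those that CdCl2 induced in both strains of an *Aspergillus nidulans* RNA sequencing study, 202 of the 10988 genes of the deposited table. They were chosen on the deposited RPKM values (reads per kilobase of transcript, scaled to the total of counted reads), averaged over the 3 libraries of each group. L is the log2 of the ratio of mean RPKM + 1 in CdCl2-treated over untreated cultures, and a gene is a member where L is at least 1 in the THS30 reference strain and also in the TNJ92 ΔatfA mutant. Alone, the limit was met by 342 genes in THS30 (3.11% of all genes) and by 720 genes in TNJ92 (6.55%), and 140 and 518 of them met it in THS30 only and in TNJ92 only. Both responses to CdCl2 chose the members, so these responses and the difference between them are given as a description. Only the difference between the strains over both conditions was tested, a contrast that the rule did not use directly. The 1 RPKM added in L can still keep out a gene that is low in a strain, so the rule also bears on the level in each strain.

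THS30 carries pyrG89, AfupyrG+, pyroA4 and pyroA+, and TNJ92 carries pyrG89, AfupyrG+, pyroA4 and ΔatfA::pyroA, so both strains share the markers pyrG89 and pyroA4 and were made prototrophic with pyrG of *A. fumigatus* and with pyroA. Submerged cultures received 0.2 mM CdCl2 at an age of 16 h or were left untreated, and mycelia of all 4 groups were taken 0.5 h later, as 3 biological replicates each. Each genotype is represented by 1 strain, so an effect of the deletion and any other difference between these strains cannot be told apart.

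Cadmium is a toxic metal without a known role in fungi. It binds thiol groups of proteins and of glutathione, displaces other metal ions from their sites and disturbs the redox balance and the folding of proteins. Cells meet it with thiol compounds, transporters that move the metal or its complexes, chaperones and the degradation of damaged proteins. AtfA, a bZIP protein of the ATF/CREB family, regulates stress genes together with the stress-activated MAP kinase SakA.

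The 12 libraries held 8721119 to 13641031 counts. Reads assigned to atfA gave 197, 178 and 159.7 RPKM in untreated THS30, 146, 138 and 138 RPKM in CdCl2-treated THS30, 14.6, 14.7 and 14.5 RPKM in untreated TNJ92 and 10.8, 11.4 and 15.01 RPKM in CdCl2-treated TNJ92. Every TNJ92 library was below every THS30 library for the deleted gene, though its reads were not at 0. The marker genes of strain construction differed as well. Mean pyroA (AN7725) was at 136 RPKM in untreated and 105 RPKM in CdCl2-treated THS30 and at 454 and 602 RPKM in TNJ92. Mean pyrG (AN6157) was at 72.6 and 59.2 RPKM in THS30 and at 141 and 102 RPKM in TNJ92. The 7 markers of asexual development (brlA, abaA, wetA, wA, yA, rodA, dewA) together held 13.3 to 83.0 RPKM in a library. The spore wall gene dewA was between 0.161 and 0.646 RPKM in the group means, and brlA, the first regulator of conidiation, was at 0.987 RPKM in untreated and 2.78 RPKM in CdCl2-treated THS30 and at 0.750 and 2.23 RPKM in TNJ92. The markers did not move together, as yA went from 10.2 to 6.86 RPKM in THS30 and from 6.61 to 4.92 RPKM in TNJ92. Group means of abaA, wetA and wA were between 0.718 and 3.69 RPKM. In untreated TNJ92, rodA was at 2.15, 23.7 and 71.4 RPKM, and this group held the lowest and the highest sum of the markers. In bulk RNA of mycelia, a change in the share of a cell type and a change in RNA per cell cannot be told apart.

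CdCl2-treated library 3 of THS30 stood apart from its replicates in the genes described. Members held 2.71, 2.59 and 1.97% of the counts of the CdCl2-treated THS30 libraries 1, 2 and 3, and library 3 was the lowest of its group for 186 of the 202 members (92.1%), against 51.0% of all genes tested. In TNJ92 the shares were 3.35, 3.52 and 3.02%, and library 3 was again the lowest for 139 members (68.8%, against 47.4% of all genes tested). Without CdCl2-treated THS30 library 3, the rule gave 251 genes in place of 202, and 200 of the 202 members kept their place.

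The rule chose genes that rose with CdCl2 in both strains, so a larger share of the transcriptome after it follows from the choice. The sizes are given as a description. They held 0.917 ± 0.0397% of the counts in untreated and 2.42 ± 0.393% in CdCl2-treated THS30, and 0.820 ± 0.0495% and 3.29 ± 0.254% in TNJ92 (mean ± SD, n = 3 in each). The median member had 8.01 RPKM in untreated and 26.7 RPKM in CdCl2-treated THS30, and 6.88 and 35.5 RPKM in TNJ92, while the median of all genes tested was between 16.9 and 18.9 RPKM in every group. Before the treatment 26 members in THS30 and 36 in TNJ92 were under 1 RPKM on average.

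L ran from 1.00 to 3.48 in THS30, with a median of 1.35, and from 1.02 to 5.64 in TNJ92, with a median of 1.95. It reached 2 in THS30 for 32 members, in TNJ92 for 98 and in both strains for 25. Deposited RPKM values are not corrected for composition, and the median L of all genes tested was 0.11 in THS30 and 0.12 in TNJ92. On RPKM from TMM-scaled library sizes, a scaling that assumes most genes do not change, 148 genes met the rule, and these 148 were all members.

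All but 1 of the members passed the filter on low counts. Of these 201, edgeR called 199 up-regulated in THS30, where 22.5% of all genes tested were called up-regulated, and all 201 in TNJ92, where the share was 28.3%. The rule used the same contrasts, so nothing is read from these counts. AN7549 and AN10592 were the 2 not called in THS30, with fitted log2 fold changes of 1.29 ± 0.54 and 0.94 ± 0.40 (± standard error, SE, as after each fitted value below). In 201 of the 202 members every treated library was above every untreated library in both strains, which held for 23.5% of all genes tested. The exception was AN8321, which was also the gene that failed the filter, with 2.19, 1.78 and 0.195 RPKM in CdCl2-treated THS30 against 0, 0.347 and 0 RPKM in untreated THS30. In untreated TNJ92 it was listed at 0 in all 3 libraries.

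**Figure D1:**
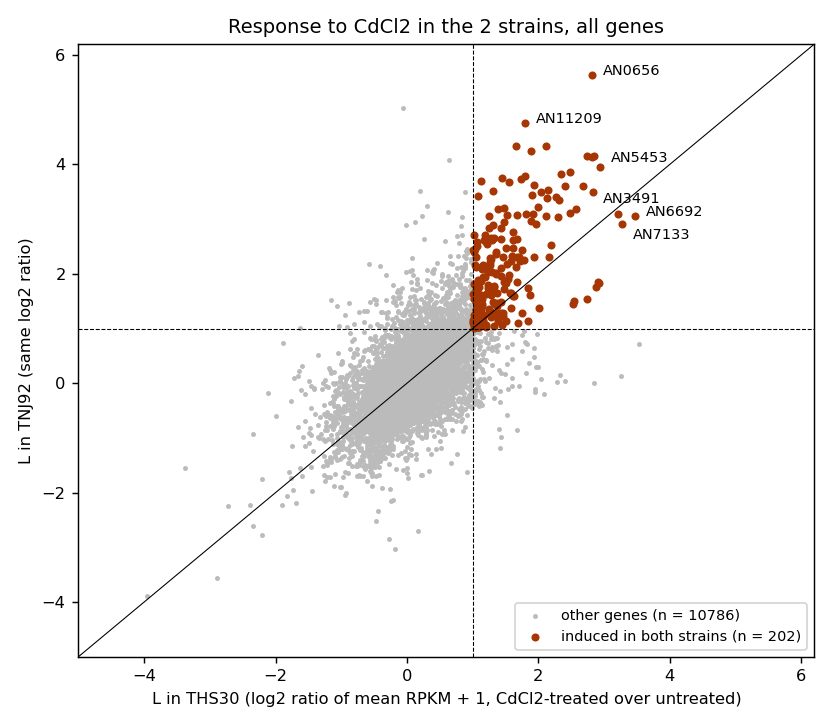
Each point is 1 of the 10988 genes, with L in THS30 on the x axis and L in TNJ92 on the y axis (log2 ratio of mean RPKM + 1 in CdCl2-treated over untreated cultures). Dashed lines mark L of 1, the solid line marks equal L, and 166 of the 202 members (dark red) lie above it.

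The strongest responses common to both strains were those of genes for which the sources used here mostly name no function. The smaller of the 2 values of L was largest for AN3491, a predicted transmembrane transporter gene of the inp secondary metabolite cluster, followed by AN6692, AN5453, AN7133, AN3429, AN3883, AN0656, AN8402, AN11043 and AN3970. Of these, AN3883 is annotated as a putative glucanase, AN0656 as a protein with a methylase domain and AN11043 as an N-acetyltransferase.

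AN3491 had 1.85, 1.53 and 1.57 RPKM in untreated and 29.5, 24.7 and 16.3 RPKM in CdCl2-treated THS30. In TNJ92 it had 0.0457, 0.345 and 0.307 RPKM untreated and 8.54, 11.9 and 8.30 RPKM after CdCl2. The treated and untreated libraries did not overlap in either strain, and TNJ92 was below THS30 in both conditions. How its responses compare depends on the scale, since L was 3.21 in THS30 and 3.10 in TNJ92, whereas the fitted log2 fold changes, which carry no added RPKM, were 3.71 ± 0.26 and 5.19 ± 0.36.

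AN6692 had the largest L in THS30. It rose from 2.38, 3.62 and 3.19 RPKM to 52.6, 49.1 and 30.9 RPKM in THS30, and from 5.19, 8.24 and 8.56 RPKM to 79.7, 68.7 and 57.03 RPKM in TNJ92. AN7133 was similar, with 5.00, 5.57 and 4.48 RPKM untreated and 72.0, 65.7 and 34.5 RPKM treated in THS30 and 15.6, 13.5 and 10.3 RPKM untreated and 93.4, 106 and 114 RPKM treated in TNJ92. In both genes the TNJ92 libraries were above the THS30 libraries of the same condition.

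AN0656 had the largest L of all members in TNJ92, 5.64, against 2.81 in THS30. Its values were 5.19, 3.26 and 3.93 RPKM in untreated and 41.5, 42.98 and 20.3 RPKM in CdCl2-treated THS30, and 1.95, 3.93 and 3.83 RPKM in untreated and 217, 235 and 179 RPKM in CdCl2-treated TNJ92. The strains overlapped before the treatment and were apart after it. AN3429 combined a strong response with a high level, with 22.7, 21.2 and 24.7 RPKM before and 211, 195 and 106 RPKM after CdCl2 in THS30, and 28.03, 36.6 and 36.0 RPKM before and 673, 654 and 519.6 RPKM after it in TNJ92.

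The glucanase gene AN3883 was almost silent in untreated TNJ92, at 0.171, 0.184 and 0.382 RPKM, and was at 1.02, 1.07 and 1.196 RPKM in untreated THS30. After CdCl2 the strains overlapped, at 17.3, 14.4 and 10.3 RPKM in THS30 and 12.6, 14.3 and 12.4 RPKM in TNJ92. For the other 4 of these 10 genes L was between 2.68 (AN3970) and 2.93 (AN5453) in THS30 and between 3.60 (AN3970) and 4.16 (AN11043) in TNJ92. AN9165, listed by the study under the response to nutrient starvation, completed the 5 largest L in THS30 with 2.93, and had 1.84 in TNJ92.

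**Figure D2:**
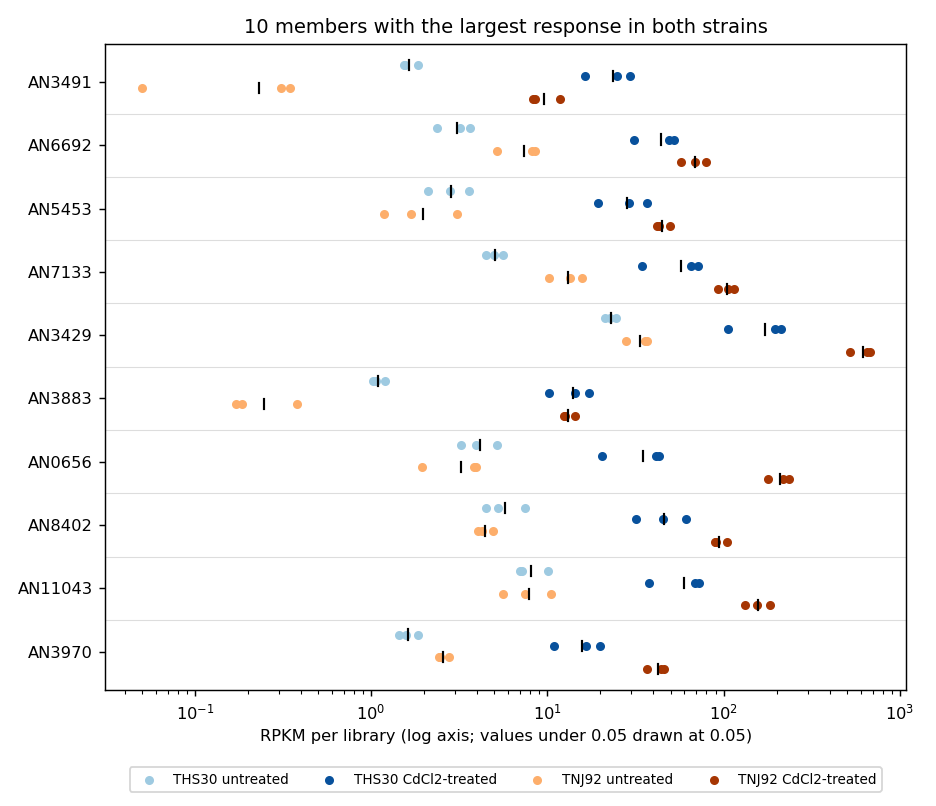
RPKM of the 10 members with the largest response in both strains (log axis), 1 point per library and a black tick at the mean of each group of 3. In all 10 genes the treated libraries lie above the untreated libraries of the same strain, and in THS30 the lowest treated point is replicate 3, such as 16.3 RPKM for AN3491.

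Protein folding and degradation were represented by some of the most abundant members. The 8 members with the highest RPKM in treated cultures were AN1677, clxA (AN3592), cdc48 (AN7254), pdiA (AN7436), AN9297, AN7588, AN8866 and AN3429. ClxA is calnexin, the lectin chaperone of the endoplasmic reticulum (ER), PdiA is a protein disulfide isomerase of the ER, and Cdc48 is the AAA type ATPase that extracts ubiquitin-tagged proteins from membranes and complexes.

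clxA rose from 243, 236 and 257 RPKM to 748, 773 and 541 RPKM in THS30 and from 303, 286 and 295 RPKM to 984, 1008 and 937 RPKM in TNJ92. pdiA rose from 281, 264 and 275 RPKM to 634, 665 and 490.2 RPKM in THS30 and from 305, 294 and 312 RPKM to 794, 753 and 643 RPKM in TNJ92. Fitted log2 fold changes of clxA were 1.36 ± 0.11 in THS30 and 1.58 ± 0.11 in TNJ92, and those of pdiA were 1.00 ± 0.10 and 1.12 ± 0.10. In these genes the responses of the strains differed by 0.23 ± 0.15 and 0.12 ± 0.15 on the log2 scale.

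cdc48 was at 293, 311 and 333 RPKM in untreated and 762, 746 and 533 RPKM in CdCl2-treated THS30, and at 208, 228 and 266 RPKM in untreated and 828, 960.5 and 797 RPKM in CdCl2-treated TNJ92. All of its TNJ92 libraries lay below THS30 before and above it after the treatment. Over both conditions, cdc48 did not differ between the strains past the threshold (-0.06 ± 0.09, adjusted p = 0.539).

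The study's proteasome list, with 31 genes, held 4 members. rpn8 (AN5121), a subunit of the regulatory particle, had 88.0, 85.3 and 82.4 RPKM before and 204, 196 and 153 RPKM after CdCl2 in THS30, and 101, 97.8 and 102 RPKM before and 218, 231 and 203 RPKM after it in TNJ92. AN3716 and AN4775 had log2 fold changes of 0.94 ± 0.11 and 0.95 ± 0.10 in THS30 and 1.00 ± 0.11 and 0.88 ± 0.10 in TNJ92. In these 3 genes the responses of the strains were within 0.07 of each other on the log2 scale. The fourth, AN3493, is a predicted threonine-type endopeptidase of the inp cluster and behaved otherwise, with 4.77, 2.81 and 2.31 RPKM before and 27.5, 21.5 and 12.3 RPKM after CdCl2 in THS30, and 0.597, 1.39 and 1.81 RPKM before and 17.6, 23.1 and 25.6 RPKM after it in TNJ92.

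Of the 31 proteasome genes listed, 29 were called up-regulated in THS30 and 30 in TNJ92, and none was called down-regulated in either, and the median change on the log2 scale was 0.61 (THS30) and 0.70 (TNJ92) against 0.00 for all genes tested in each strain. Among all genes tested, 22.5% were called up-regulated and 21.5% down-regulated in THS30, and 28.3 and 28.2% in TNJ92. Most of the proteasome genes stayed under the limit of the rule. The study's term lists hold genes it had selected in these same libraries, and the terms were picked here after the values had been seen, so these counts are no independent evidence of a direction. csnD (AN1539), a subunit of the COP9 signalosome, which acts on ubiquitin ligases, had log2 fold changes of 0.93 ± 0.14 and 1.14 ± 0.13. AN1677 was the most abundant member, at 651, 856 and 891 RPKM before and 1960.2, 1816 and 1702 RPKM after CdCl2 in THS30, and 237, 277 and 371 RPKM before and 1979, 2108 and 1755 RPKM after it in TNJ92, so the strains were apart before and overlapped after the treatment.

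Among the study's term lists, several of which were cut short in the copy used, that of N-acetyltransferases held the most members. These enzymes move an acetyl group from acetyl-CoA to an amino group. The 10 members of this kind (AN11043, AN5053, AN5330, AN8005, AN7944, AN8604, AN1621, AN6411, AN10234 and AN8373) stand in the study's list of that activity, which holds 21 genes. Of the 21 genes, 15 were called up-regulated in THS30 and 18 in TNJ92, and 1 was called down-regulated in THS30 and 0 in TNJ92, in a list again made of genes the study selected in these libraries. The shares among all genes tested were 22.5% (THS30) and 28.3% (TNJ92) up-regulated and 21.5 and 28.2% down-regulated. Among the 10 members the median fitted log2 fold change was 1.83 in THS30 (1.09 to 2.74) and 3.61 in TNJ92 (2.52 to 4.35).

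AN5053 had 3.59, 3.20 and 4.10 RPKM before and 22.6, 21.6 and 13.02 RPKM after CdCl2 in THS30, and 7.55, 6.90 and 9.33 RPKM before and 187, 192 and 159 RPKM after it in TNJ92. AN5330 had 24.5, 25.0 and 32.7 RPKM before and 134, 111 and 68.9 RPKM after CdCl2 in THS30, and 3.84, 8.72 and 9.54 RPKM before and 169, 169 and 137 RPKM after it in TNJ92. Both genes thus reached higher levels in treated TNJ92 than in treated THS30, although untreated TNJ92 lay above THS30 in AN5053 and below it in AN5330.

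The untreated strains were apart in some of the rest. AN1621 started at 23.7, 23.98 and 25.9 RPKM in untreated THS30 and at 4.23, 6.32 and 8.73 RPKM in untreated TNJ92, and AN7944 at 24.7, 18.7 and 23.3 RPKM and at 7.81, 13.2 and 14.6 RPKM. AN11043 overlapped between the untreated strains, and in AN8604 untreated TNJ92 was slightly below THS30 in every library (-0.21 on the log2 scale). Both genes were apart after CdCl2, with 75.8, 64.7 and 38.5 RPKM in THS30 and 192, 188 and 135 RPKM in TNJ92 for AN8604. Over both conditions edgeR called 6 of the 10 members higher in TNJ92 and 3 lower, and AN7944 neither (-0.27 ± 0.17, adjusted p = 0.177). Of all genes tested, 36.4% were called higher and 32.9% lower in TNJ92, and nothing is read from the counts of these 10 members. AN8005 had the most even responses, 2.24 ± 0.21 in THS30 and 2.52 ± 0.20 in TNJ92 on the log2 scale.

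**Figure D3:**
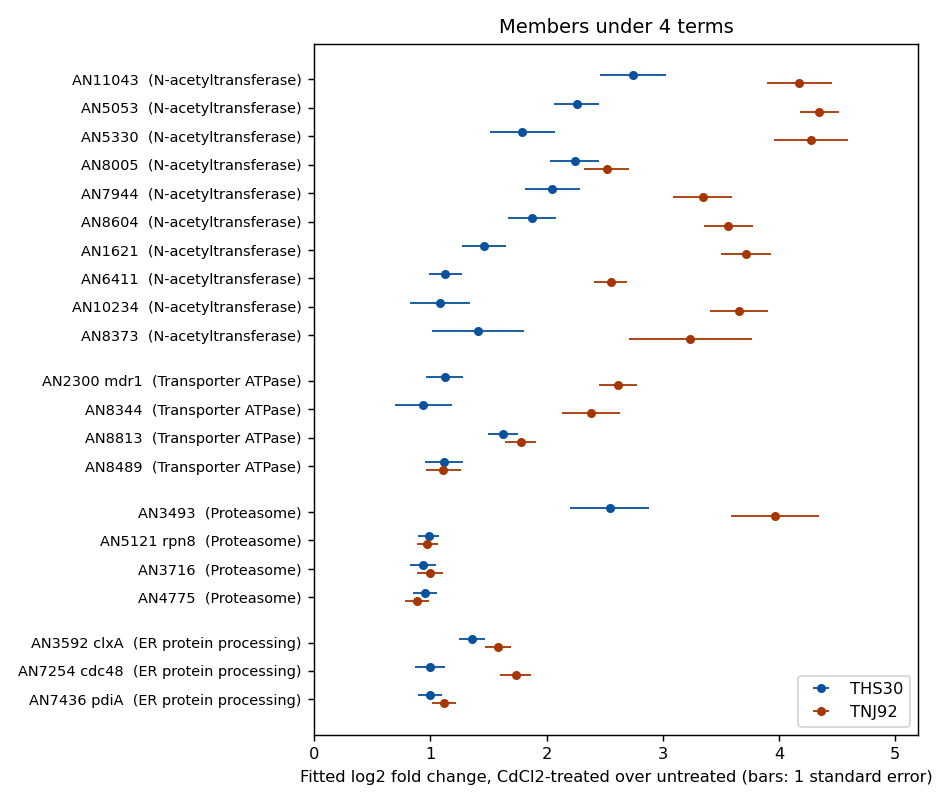
Fitted log2 fold changes (CdCl2-treated over untreated) of the members listed under 4 terms, in THS30 (blue) and TNJ92 (red), with bars of 1 SE. For the 10 N-acetyltransferase genes the TNJ92 points lie between 2.52 and 4.35 and each is to the right of the THS30 point, whereas for rpn8, AN3716 and AN4775 the bars of the strains overlap.

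Transporters were a further recurring role. The study's list of ATPases coupled to transmembrane movement, with 17 genes, held 4 members, and of the 17 genes 9 were called up-regulated in THS30 (22.5% of all genes tested) and all 17 in TNJ92 (28.3%). This list, too, was drawn from genes selected in these libraries. mdr1 (AN2300) rose from 9.84, 8.77 and 10.7 RPKM to 28.3, 25.1 and 16.5 RPKM in THS30 and from 8.29, 7.88 and 9.25 RPKM to 54.5, 66.2 and 51.4 RPKM in TNJ92. AN8344 responded alike, with log2 fold changes of 0.94 ± 0.25 in THS30 and 2.38 ± 0.25 in TNJ92, whereas those of AN8813 (1.62 ± 0.13 and 1.78 ± 0.13) and AN8489 (1.11 ± 0.16 and 1.11 ± 0.15) were close in the strains.

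Among the members with a symbol were a siderophore iron transporter gene and a sulfate transporter gene. sit1 (AN5378), named as a siderophore iron transporter, rose from 8.47, 12.0 and 9.13 RPKM to 37.5, 33.6 and 26.5 RPKM in THS30 and from 25.5, 24.4 and 21.0 RPKM to 79.0, 69.6 and 71.0 RPKM in TNJ92. sB (AN2730), a sulfate transporter, rose from 3.58, 3.11 and 2.67 RPKM to 14.8, 16.6 and 15.3 RPKM in THS30 and from 8.13, 5.80 and 5.50 RPKM to 21.9, 19.99 and 13.02 RPKM in TNJ92. Both were higher in TNJ92 before the treatment, and after it the strains overlapped in sB and stayed apart in sit1. Some other transport and sulfur genes did not share this direction, while others, such as cysD and the putative vacuolar transporter gene AN7729, rose in both strains. Of the study's 7 zinc transporter genes, 0 were called up-regulated in either strain. Of these 7, 5 were called down-regulated in THS30 and 6 in TNJ92, against 21.5 and 28.2% of all genes tested. The sulfur genes sC and sD fell in both strains (-1.11 and -0.75 in THS30, -1.90 and -0.60 in TNJ92), and met16 rose in THS30 (0.53) and fell in TNJ92 (-0.40).

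sB and AN5019, with a predicted domain of methionine synthase, were the 2 members in the study's group of 56 genes of cysteine, methionine and glutathione metabolism. Of the 53 genes of this group that were tested, 18 were called up-regulated and 13 down-regulated in THS30, and 16 and 19 in TNJ92. The same shares among all genes tested were 22.5 and 21.5% in THS30 and 28.3 and 28.2% in TNJ92, and nothing is read from the counts of this group or of those that follow. AN5019 had 1.91, 1.47 and 2.11 RPKM before and 5.65, 7.04 and 4.20 RPKM after CdCl2 in THS30, and 3.05, 4.46 and 3.78 RPKM before and 14.3, 17.5 and 13.04 RPKM after it in TNJ92. In the neighbouring folate cycle, AN0495, with a predicted formyltetrahydrofolate deformylase domain, rose from 39.6, 42.6 and 48.2 RPKM to 168, 152 and 104 RPKM in THS30 and from 53.7, 65.6 and 65.2 RPKM to 306, 331 and 285 RPKM in TNJ92. It was the only member of the 12 folate cycle genes, of which 6 were called up-regulated and 5 down-regulated in THS30, and 1 and 6 in TNJ92, beside the shares of all genes just given. The annotated span of AN0495 overlaps another gene, and whether reads were counted by strand is unknown here, so reads of the pair cannot be told apart.

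The antioxidant group of the study, with 35 genes tested, contributed 1 member. This was AN7924, with a predicted peroxidase domain, whose log2 fold changes were 1.04 ± 0.17 in THS30 and 1.34 ± 0.16 in TNJ92. Of that group 7 genes were called up-regulated and 9 down-regulated in THS30, and 9 and 6 in TNJ92, where 22.5 and 21.5% of all genes tested were called in THS30 and 28.3 and 28.2% in TNJ92. Among genes of proteins that bind Fe-S clusters (44 tested), 8 were called up-regulated in each strain and 17 and 21 down-regulated, and AN11251 was the only member, at 0.901, 0.882 and 0.532 RPKM before and 7.07, 7.76 and 5.96 RPKM after CdCl2 in THS30 and at 0.962, 0.908 and 0.346 RPKM before and 7.45, 9.07 and 6.26 RPKM after it in TNJ92. The ribosome biogenesis group held AN10139 as its only member, though 85 of its 185 genes were called up-regulated and 46 down-regulated in THS30, and 10 and 135 in TNJ92, against the same shares of all genes.

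Several members with a gene symbol belong to the metabolism of amino acids and purines. argB (AN4409), the ornithine carbamoyltransferase of arginine biosynthesis, rose from 81.9, 77.7 and 83.7 RPKM to 269, 256 and 173 RPKM in THS30 and from 84.5, 86.5 and 87.0 RPKM to 303, 334 and 288 RPKM in TNJ92. trpE (AN3695) and trpB (AN6231), both of tryptophan biosynthesis, had log2 fold changes of 1.03 ± 0.12 and 1.00 ± 0.13 in THS30 and of 1.31 ± 0.12 and 1.47 ± 0.13 in TNJ92. hemA (AN2284), the aminolevulinate synthase that starts heme biosynthesis, had 0.89 ± 0.11 and 0.98 ± 0.11, and AN9157, listed among the aminoacyl-tRNA synthetases, had 1.23 ± 0.14 and 1.85 ± 0.14.

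Catabolic genes were present too. prnD (AN1731), the proline oxidase of the proline utilization cluster, rose from 4.03, 4.64 and 4.56 RPKM to 13.4, 12.7 and 10.3 RPKM in THS30 and from 1.12, 1.69 and 1.416 RPKM to 10.1, 11.5 and 10.1 RPKM in TNJ92. hmgA (AN1897), the homogentisate dioxygenase of tyrosine and phenylalanine breakdown, and hmgX (AN1898), which that step also needs, are direct neighbours. hmgA had log2 fold changes of 1.59 ± 0.21 and 1.92 ± 0.23, and hmgX, at 0.0815 to 0.825 RPKM in untreated cultures, had 2.56 ± 0.42 and 3.12 ± 0.39. aah1 (AN6078), an adenine deaminase in yeast, had 1.87 ± 0.19 and 3.08 ± 0.20.

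Secondary metabolite clusters contributed single genes rather than whole clusters, except for the inp cluster with 2 members among its 8 genes. All 5 inp genes that passed the filter were called up-regulated in TNJ92 and 3 of them in THS30. Of all genes tested, 28.3% were called up-regulated in TNJ92 and 22.5% in THS30, and nothing is read from the inp counts. AN3490, 1 of the 5, was at 0.0824 RPKM in untreated THS30 and 0 RPKM in untreated TNJ92, so it passed the filter on its treated libraries. The backbone gene inpA was at or under 0.0704 RPKM in every group mean and was not tested. The other peptide synthetase gene of the cluster, inpB (AN3496), had mean levels of 0.172 RPKM before and 0.334 RPKM after CdCl2 in THS30 and of 0.0436 and 0.599 RPKM in TNJ92, with log2 fold changes of 0.79 ± 0.37 in THS30, which was not called, and of 3.58 ± 0.42 in TNJ92, which was called. Of the other clusters, AN0529 of the pkdA cluster rose from 0.122, 0.0851 and 0.270 RPKM to 2.63, 2.62 and 2.20 RPKM in THS30 and from 0.162, 0.263 and 0.233 RPKM to 4.68, 5.53 and 3.98 RPKM in TNJ92, while pkdA itself was at or under 0.0714 RPKM in every group mean. For AN0529 the untreated groups held 5 (THS30) and 8 (TNJ92) counts over 3 libraries and the treated groups 80 and 167.

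AN5318, a putative non-ribosomal peptide synthetase gene, was the most abundant of the cluster members in every group but CdCl2-treated TNJ92. It had 28.6, 35.7 and 33.98 RPKM before and 89.7, 85.2 and 80.4 RPKM after CdCl2 in THS30, and 39.01, 37.6 and 49.6 RPKM before and 105, 109 and 99.1 RPKM after it in TNJ92. In CdCl2-treated TNJ92 the mean of AN0656, which the study lists in a cluster without a backbone gene, was higher, at 210 RPKM. The cytochrome P450 genes CYP548C1 (AN7881) and CYP548D1 (AN9007) had L of 1.05 and 1.31 in THS30 and of 1.48 and 1.49 in TNJ92, and AN3285 of the AN3273 cluster had 1.39 and 1.17. In the cell wall group, with 82 genes tested, 16 genes were called up-regulated and 18 down-regulated in THS30, and 31 and 21 in TNJ92, with AN3883 and celA (AN8444) as the members. Of all genes tested, 22.5 and 21.5% were called in THS30 and 28.3 and 28.2% in TNJ92.

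The members responded more strongly in TNJ92 in most cases. The fitted response was larger in TNJ92 for 162 of the 201 members tested and smaller for 39, with a median difference of 0.62 on the log2 scale, and among all genes tested 50.8% had a larger response in TNJ92, with a median difference of 0.01. By L, 166 of the 202 members had the larger value in TNJ92. Without CdCl2-treated THS30 library 3 these numbers were 152 and 150 and the median fitted difference was 0.55. Its part in the difference beyond these values was not tested, and since both responses chose the members, no test is given. All genes tested hold induced and repressed genes together, whose differences can cancel in their median. More genes were called in TNJ92 than in THS30 in both directions (28.3 against 22.5% up-regulated and 28.2 against 21.5% down-regulated).

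The largest differences in favour of TNJ92 came with low levels in its untreated cultures. AN11209 had 24.7, 23.5 and 31.5 RPKM before and 115, 101 and 68.0 RPKM after CdCl2 in THS30, against 3.60, 4.85 and 6.47 RPKM before and 176, 169.7 and 133 RPKM after it in TNJ92, and its responses differed by 3.15 ± 0.31. AN8330 and AN9320 differed by 3.46 ± 0.35 and 3.39 ± 0.59, with 0.289 to 0.456 and 0.262 to 0.617 RPKM in untreated TNJ92 against 5.52 to 6.48 and 2.52 to 5.18 RPKM in untreated THS30. AN6397, which the study lists under transport ATPases, another term than that of mdr1, differed by 3.06 ± 0.34 and reached 25.0, 37.1 and 29.1 RPKM in treated TNJ92 against 6.92, 6.46 and 9.20 RPKM in treated THS30. For AN2471 no ratio is given, since untreated TNJ92 held 2 counts in all 3 libraries together, against 14 in untreated THS30 and 116 and 228 in the treated groups.

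The responses were weaker in TNJ92 for AN10139, AN5074, AN8559, AN8366 and sB, by -1.07 ± 0.46, -1.04 ± 0.60, -0.98 ± 0.19, -0.92 ± 0.33 and -0.86 ± 0.26. AN8559, listed under the degradation of branched-chain amino acids, rose from 16.0, 14.01 and 13.8 RPKM to 101, 95.6 and 74.0 RPKM in THS30 and from 4.74, 4.90 and 5.81 RPKM to 19.1, 16.2 and 14.05 RPKM in TNJ92. Its treated TNJ92 libraries thus only just reached the level of untreated THS30.

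Over both conditions, the strains differed in most members, about as often as among all genes. edgeR called 84 of the 201 members tested higher in TNJ92 (41.8%, against 36.4% of all genes tested) and 56 lower (27.9%, against 32.9%), and 61 were neither. The median difference was 0.16 on the log2 scale, against 0.03 for all genes tested. The shares of members called were near those of all genes, and nothing particular to the members is read from them. In 21 members the difference was called and at least 1 on the log2 scale in favour of TNJ92, and in 20 in favour of THS30. The share of all genes at this size is not given here, so nothing is read from these counts.

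AN3996 showed the widest gap. It was at 129.9, 108 and 122 RPKM in untreated and 412, 434 and 304 RPKM in CdCl2-treated THS30, but at 1.02, 1.24 and 0.981 RPKM and 6.08, 7.24 and 6.33 RPKM in TNJ92. The difference between the strains was -6.35 ± 0.11 on the log2 scale (adjusted p = 5.9e-18), and CdCl2 raised the gene in both strains all the same, by 1.55 ± 0.11 and 2.45 ± 0.20. AN20052 also was far lower in TNJ92, at 33.7, 30.6 and 41.9 RPKM untreated and 102, 105 and 92.0 RPKM treated in THS30 against 1.94, 3.78 and 7.65 RPKM and 12.0, 12.3 and 11.3 RPKM in TNJ92 (-3.05 ± 0.21, adjusted p = 1.72e-07).

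The neighbouring genes AN8365 and AN8366 differed between the strains in opposite directions. AN8365 was at 1.28, 2.48 and 1.93 RPKM untreated and 6.89, 6.59 and 5.67 RPKM treated in THS30 and at 13.5, 13.6 and 8.93 RPKM and 81.3, 69.4 and 52.98 RPKM in TNJ92 (2.98 ± 0.15, adjusted p = 4.75e-10). AN8366 was at 18.2, 17.2 and 12.0 RPKM untreated and 123, 117 and 93.4 RPKM treated in THS30 and at 1.36, 1.57 and 3.37 RPKM and 7.94, 8.10 and 8.04 RPKM in TNJ92 (-3.37 ± 0.16, adjusted p = 4.36e-10). CdCl2 raised both genes in both strains, and the strains did not overlap in either condition for either gene.

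celA, similar to cellulose synthases, was at 5.25, 7.30 and 6.05 RPKM untreated and 24.8, 21.6 and 18.6 RPKM treated in THS30 and at 21.7, 24.6 and 30.3 RPKM and 102, 127 and 117 RPKM in TNJ92. Untreated TNJ92 thus overlapped with treated THS30, and the strains differed by 2.19 ± 0.10 (adjusted p = 1.65e-11). AN6075, AN8095 and AN5053 were higher in TNJ92 as well, by 2.54 ± 0.11, 2.48 ± 0.30 and 2.15 ± 0.13 (adjusted p = 3.83e-11, 2.63e-05 and 2.36e-10), and AN8330 and AN3491 lower, by -2.41 ± 0.17 and -2.07 ± 0.25 (adjusted p = 1.35e-09 and 3.03e-06).

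**Figure D4:**
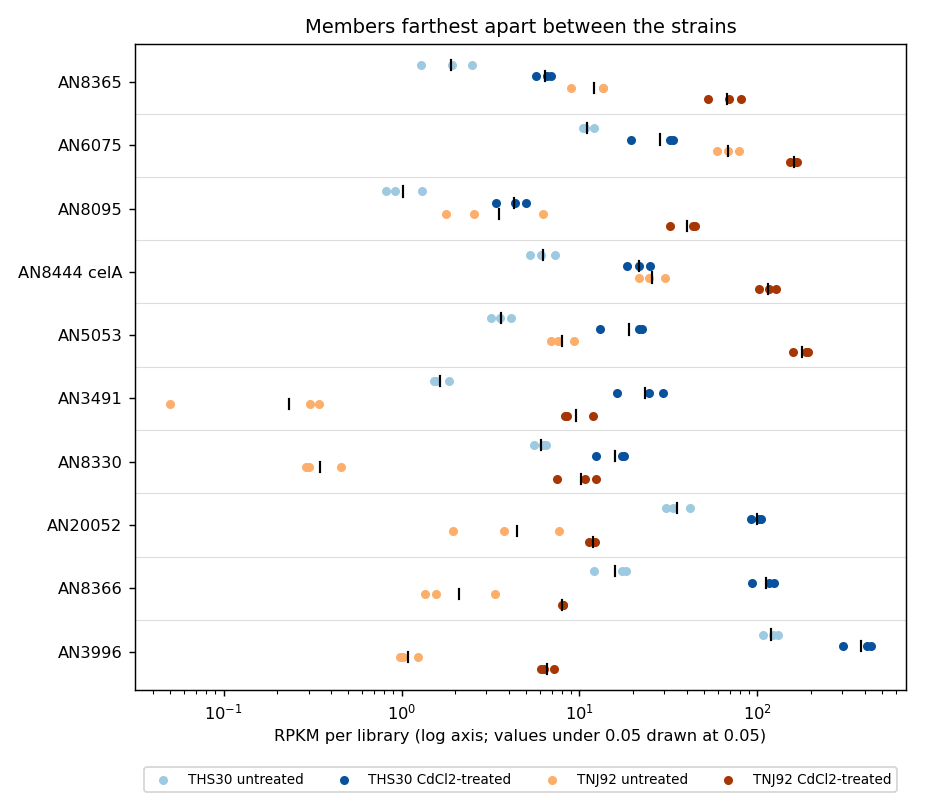
RPKM per library (log axis, 1 value under 0.05 drawn at 0.05) of the 5 members with the largest and the 5 with the smallest difference between TNJ92 and THS30 over both conditions, with a black tick at the group mean. In AN3996, at the bottom, the TNJ92 libraries lie between 0.981 and 7.24 RPKM and the THS30 libraries between 108 and 434 RPKM.

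By condition, the order of the strains shifted. In untreated cultures every TNJ92 library was below every THS30 library in 76 of the 201 members tested (37.8%, against 30.5% of all genes tested) and above it in 51 (25.4%, against 35.5%). In CdCl2-treated cultures TNJ92 was below in 26 (12.9%, against 28.9%) and above in 107 (53.2%, against 33.3%). The median difference between the strains in members was -0.21 on the log2 scale untreated and 0.41 after CdCl2, against 0.03 and 0.00 for all genes tested. These values contain the difference between the responses, which the rule bears on, and are given without a test.

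TNJ92 was below THS30 in every untreated library and above it in every treated library in 18 of the 201 members tested (8.96%, against 2.06% of all genes tested), among them AN11209, AN3976, AN5330, AN6397, cdc48, aah1 and AN8604. The opposite pattern occurred in 0 members and in 2.26% of all genes tested. The rule used the responses that these counts contain, and nothing is read from them. AN3976, for example, had 34.3, 30.1 and 28.2 RPKM in untreated THS30 and 5.37, 8.03 and 6.86 RPKM in untreated TNJ92, but 127, 109 and 63.1 RPKM in treated THS30 and 180.1, 157 and 130.2 RPKM in treated TNJ92. TNJ92 was above in both conditions in 42 members (20.9%, against 21.8% of all genes tested) and below in both in 23 (11.4%, against 19.9%).

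**Figure D5:**
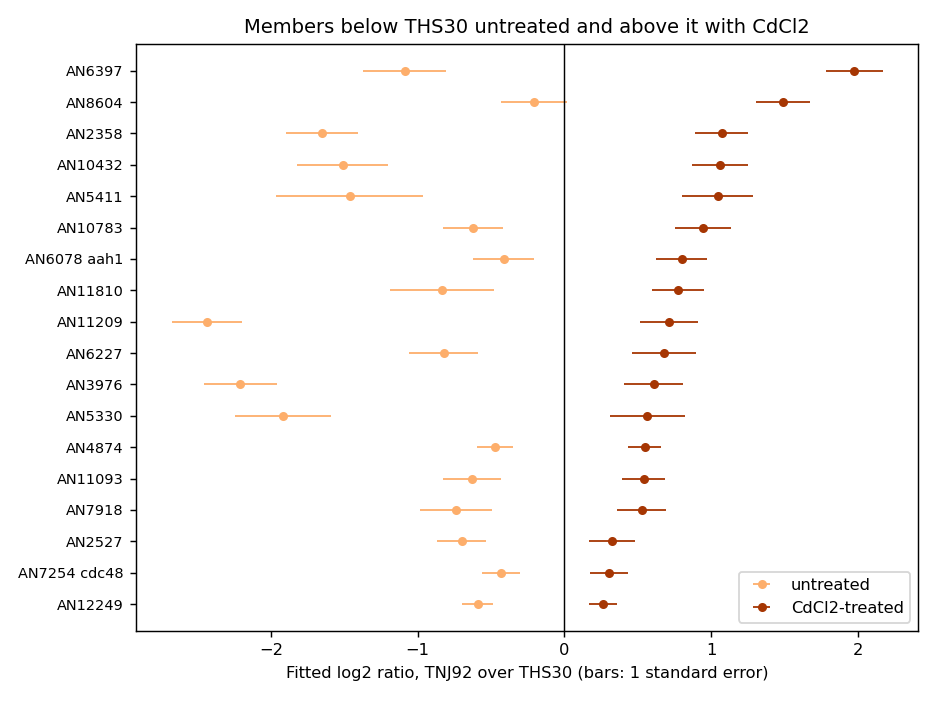
Fitted log2 ratio of TNJ92 over THS30 in untreated (light orange) and CdCl2-treated (dark red) cultures for the 18 members whose TNJ92 libraries were all below THS30 before and all above it after CdCl2, with bars of 1 SE. The untreated values run from -2.44 (AN11209) to -0.21 (AN8604), and the treated values reach 1.97 (AN6397).

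Members often stood beside one another in the genome. In the order of genes of the ASM1142v1 assembly, used for neighbourhood only, 192 members were found, and 30 of them (15.6%) had another member as direct neighbour, whereas 3.75% of all 10029 genes found had a member as direct neighbour. Allowing 1 gene between them, 44 members formed 21 runs, 2 of which held 3 members. The runs include AN3491 and AN3493 of the inp cluster, hmgA and hmgX, AN8365 and AN8366, AN3882 and AN3883, AN8402 and AN8403, AN11043 and AN8095, AN6411 and AN6412, AN9157 and AN9158, the triplet AN8340, AN8342 and AN8344 and the triplet AN5652, AN5653 and AN5655. In the last of these L was 1.93 to 2.30 for AN5655 and AN5653 and 1.47 for AN5652 in THS30, and 2.30, 3.04 and 2.95 in TNJ92. Direct neighbours can share reads where transcripts run together, which was not tested. The annotated spans overlapped another gene in 2 members (AN0495 and AN2471), 1.04% of the members found against 2.49% of all genes found. Annotated spans cannot show whether transcripts ran past their annotated ends.

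The members were slightly shorter than other genes, with a median transcript length of 1348 bases against 1593 bases for all genes tested, and ran from 73 to 5089 bases. The shortest is tK(CUU)3, a transfer RNA gene and the only one among the members, with 4.39 to 10.4 RPKM in untreated and 14.8 to 19.2 RPKM in CdCl2-treated THS30. At its length these values rest on few reads. The read length stated in the paper exceeds this gene, so its reads cannot be assigned to the mature transfer RNA alone. A gene symbol was found for 19 members, and 16 (7.92%, against 10.5% of all genes) stood in a gene group of the study. For 127 of the 202 members the sources used here gave neither a symbol nor a group nor a term.

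Some members lay close to the limit of the rule. Just inside were AN11590 with L of 1.00 in THS30 and 1.16 in TNJ92, AN8344 with 1.00 and 2.44 and tK(CUU)3 with 1.00 and 1.10. Just outside were AN5087 with 1.00 (0.999 before rounding to 2 decimals) and 1.06, AN2233 with 1.00 (0.996) and 1.18, and AN3650 with 0.99 and 1.60.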

How the data were processed

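RNA of mycelia was sequenced by the authors (TruSeq RNA libraries), checked with FastQC, aligned with HISAT2 2.1.0 to the FGSC A4 genome and tested with DESeq2 (version 1.20.0 in the submitters' processing notes). The deposited counts are whole reads per gene, and the RPKM values deposited by the authors equal counts divided by transcript length and by the total of counted reads. For the counting program and strand setting, the sources used here give nothing.

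L was computed from the RPKM columns. Counts were tested with edgeR 4.0.16 (R 4.3.3): filterByExpr (minimum count 10, smallest group 3), which kept 9070 genes, TMM, robust quasi-likelihood fits with the 4 groups in 1 model, and Benjamini-Hochberg adjustment over these genes at 0.05. The SE is the log2 fold change divided by the root of F. The p-values set a difference against the spread between the 3 biological replicates within a group. This spread was estimated over the 4 groups together and drawn towards that of other genes.

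The members and lists were chosen with earlier results of these data known. Genes were named by size of L, level, response difference and strain difference (10 by the smaller L, 5 per strain by L, 8 by level, 5 at each end of both differences), by symbol or group of the study (up to 3 per group), and by nearness to the limit (3 on each side). Term lists, AN7549, AN10592, AN8321 and neighbouring genes were named after their values were seen. Alternatives were other pseudocounts, thresholds, scalings and filters, DESeq2 1.42.0, a replicate block and leaving out each library.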

Additional observations from a re-analysis of the deposited data

Results flagged for a closer look

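In 18 members every TNJ92 library was below every THS30 library in untreated cultures and above every THS30 library in CdCl2-treated cultures, which drew attention because the difference between the strains turned round with the treatment. This held for 8.96% of the 201 members tested and for 2.06% of all genes tested, and the rule that chose the members bears on it. This difference between conditions was not tested, since the responses to CdCl2 had chosen the members. On the log2 scale (TNJ92 over THS30, untreated and then CdCl2-treated), the named genes among them had -0.21 and 1.49 (AN8604), -0.41 and 0.80 (aah1, AN6078), -1.92 and 0.56 (AN5330), -2.44 and 0.71 (AN11209), -2.21 and 0.61 (AN3976), -1.09 and 1.97 (AN6397) and -0.44 and 0.31 (cdc48, AN7254). With groups of 3 libraries, no single value was tested as an outlier.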

How the results depend on the processing

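The number of genes induced in both strains depended on the pseudocount and the limit. It was 400 with 0.1 RPKM and 97 with 5 RPKM in place of 1, 751 at a 1.5-fold limit and 25 at L of at least 2. The 400 and the 751 genes held all 202 members, and the 97, the 25 and the 148 of the TMM-scaled values were all members. Leaving out 1 library gave 168 to 251 genes. Requiring a log2 difference of at least 1 left 21 members higher and 20 lower in TNJ92, without a share of all genes to set beside them.

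Under the other scalings, filters and tests, the counts of members called or with a larger response moved by less than 1.5 times. Leaving out 1 library gave 197 to 201 members up-regulated in THS30, 201 in TNJ92, 152 to 172 with a larger response in TNJ92, 75 to 87 higher and 53 to 65 lower in TNJ92. Without TMM, the median log2 fold change of all genes tested was 0.13 in THS30 and 0.15 in TNJ92, against 0.00 in each with it. The labels do not say that a replicate number marks a shared batch. The correlations that follow compare how libraries departed from the other replicates of their group, not their expression levels. Same-numbered libraries correlated over 0.1 in all 6 pairs of replicate 1 and all 6 of replicate 3 but in 0 of 6 of replicate 2 (-0.134 to 0.319 over the 18 pairs), and 12 of 18 correlated best with their own number, a hint of a shared factor in the data that falls short of pairing every replicate. A replicate block gave 200 and 201 members up-regulated, 161 with a larger response, 89 higher and 58 lower in TNJ92.

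The strain difference over both conditions changed sign for 4 genes that did not pass the threshold: without 1 library it ran from -0.20 to 0.17 in AN5453, -0.12 to 0.19 in AN11251, -0.25 to 0.40 in hmgX (AN1898) and -0.033 to 0.071 in AN4775. Among the 74 named genes, 18 alternative values of 5 genes lost and 16 values of 8 genes gained the call, with the direction kept. Low counts limit precision most for AN2471, AN8321 and AN0529.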
